A study of Rattus norvegicus with 11 samples.

Results

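The Reg genes, first named for a transcript of regenerating rat islets, encode small secreted proteins of the C-type lectin fold. The 5 members followed here were Reg1a, Reg3a, Reg3b, Reg3g and Reg4, each taken by its gene symbol. They were 5 of the 14324 genes with a symbol of their own in the gene-level table, each read by 1 probe. No probe with several symbols listed a member.

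Islet RNA came from 13-week-old female Sprague-Dawley rats and was hybridised to one-colour Affymetrix Rat Gene ST arrays. The fathers of 6 arrays' donors ate standard chow with 9% fat (chow-father), and the fathers of the other 5 ate high-fat pellets with 43% fat (HFD-father). Mating took place when the fathers were 15 weeks old, the mothers ate chow, and every daughter went onto chow at weaning at 3 weeks, so the diet differed in the fathers only. The labels number the samples but do not say whether each is 1 rat, a pool, or from a separate litter or father, so p-values measure the spread between these samples, which may be partly technical.

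Reg1a encodes the protein also called lithostathine, which acinar cells, the enzyme-secreting cells of the exocrine pancreas, release into pancreatic juice. Reg3a, Reg3b and Reg3g encode pancreatitis-associated proteins. Acinar cells make little of them at rest and much more during pancreatitis, and cytokines that signal through the receptor chain gp130 (Il6st) and the transcription factor Stat3 induce them. In the gut, Reg3b and Reg3g are secreted by the epithelium and act against bacteria. Reg4 is known from endocrine and mucus-secreting cells of the gut. Islets isolated from the pancreas usually carry some acinar tissue, so a Reg transcript in an islet preparation can come from either side.

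Levels are log2 normalized intensities, and a step of 1 is a doubling of signal. Tests compare arrays for the same probe. A percentile among probe means places a signal on the array's scale and does not rank transcript amounts, since probes differ in response. The defining islet transcripts were near the top of the scale: the 12 measured of 13 islet markers, among them Ins1 and Gcg, had mean levels from 10.16 to 14.29. So were the acinar enzymes, with mean levels from 10.31 to 14.20 for the 18 measured of 23. Medians of the arrays ran from 6.14 to 6.20. The arrays fall by their sample numbers into a run of 8 and a run of 3 (chow-father 5 and 6, HFD-father 5). The deposited values had been centred per run, since the mean of each probe differed by at most 5.83e-05 between the runs, so differences between runs cannot be read from them. Islets of chow-father 4 had the lowest acinar level of all arrays, with an enzyme mean of -1.02 relative to the average array against -0.31 to 0.43 in the other arrays. Chow-father 6 and HFD-father 2 stood apart by transcripts of intestinal enterocytes, described with Reg3g, and HFD-father 1 by lymphocyte markers.

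Reg1a, Reg3a, Reg3b and Reg3g were among the most variable transcripts of the whole table, and Reg4 was not. Ranked by SD over the 11 arrays, Reg3b was number 3 of 14324 genes with an SD of 1.44, Reg3a number 8 with 1.13, Reg1a number 19 with 0.99 and Reg3g number 33 with 0.86. The median SD over all probes was 0.129 and the 95th percentile was 0.285. Reg4 had an SD of 0.107, number 8872. From the lowest to the highest array the signal differed 26.8-fold for Reg3b, 9.30-fold for Reg1a, 8.45-fold for Reg3g, 8.30-fold for Reg3a and 1.27-fold for Reg4. This spread lay within groups as well as over all arrays: Reg3b covered 3.49 log2 units within the chow-father arrays and 4.64 within the HFD-father arrays. In bulk islet samples, fewer cells of a type and less RNA per cell cannot be told apart.

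**Figure D1:**
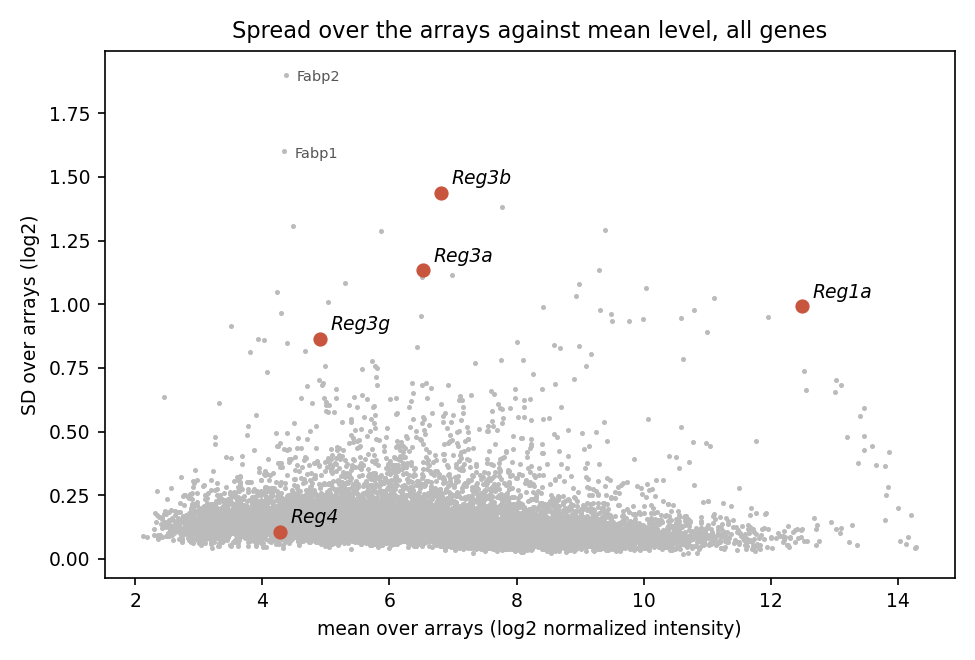
Each point is 1 of 14324 genes, with its mean log2 normalized intensity over 11 arrays on the horizontal axis and its SD over the same arrays on the vertical axis, and the 5 Reg genes in red. Reg3b, Reg3a, Reg1a and Reg3g stand above nearly all genes of like level, with SDs of 1.44, 1.13, 0.99 and 0.86, while Reg4 lies inside the main cloud at 0.107.

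Reg1a and the 3 Reg3 genes are neighbours on rat chromosome 4, in the order Reg3b, Reg3a, Reg1a and Reg3g, with a pseudogene of Reg3b and a long noncoding RNA between them in the RefSeq annotation. Reg4 is on chromosome 2. The 250 bases before the annotated starts of the 4 clustered genes are shown because Reg1a, Reg3a and Reg3b moved together over the arrays, and Reg3g is their neighbour and relative. They are RefSeq sequences of GRCr8, written 5′ to 3′ on the gene's strand, with capitals for 3 motifs searched on both strands: TATAAA (the TATA box), TTCNNNGAA (the letters of a STAT site) and CACCTG (an E-box of the kind bound by the acinar factor Ptf1a). For Reg3a, with 2 listed starts, the first is used.
Reg1a (chr4:112450216-112450465, plus strand): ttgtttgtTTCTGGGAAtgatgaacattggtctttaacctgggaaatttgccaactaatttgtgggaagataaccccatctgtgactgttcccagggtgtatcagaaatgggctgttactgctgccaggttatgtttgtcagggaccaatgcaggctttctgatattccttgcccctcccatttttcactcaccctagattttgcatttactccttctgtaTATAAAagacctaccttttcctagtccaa
Reg3a (chr4:112430147-112430396, plus strand): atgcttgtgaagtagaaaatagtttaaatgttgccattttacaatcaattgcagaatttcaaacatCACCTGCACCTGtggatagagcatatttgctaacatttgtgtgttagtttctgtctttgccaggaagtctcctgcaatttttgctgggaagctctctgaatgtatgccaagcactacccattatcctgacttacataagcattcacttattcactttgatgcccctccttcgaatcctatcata
Reg3b (chr4:112419526-112419775, plus strand): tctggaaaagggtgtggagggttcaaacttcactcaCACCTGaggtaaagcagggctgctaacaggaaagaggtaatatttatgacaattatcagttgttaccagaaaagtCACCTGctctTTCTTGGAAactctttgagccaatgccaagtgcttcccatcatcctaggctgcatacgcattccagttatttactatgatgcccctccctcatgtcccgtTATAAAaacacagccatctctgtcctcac
Reg3g (chr4:112484739-112484988, minus strand): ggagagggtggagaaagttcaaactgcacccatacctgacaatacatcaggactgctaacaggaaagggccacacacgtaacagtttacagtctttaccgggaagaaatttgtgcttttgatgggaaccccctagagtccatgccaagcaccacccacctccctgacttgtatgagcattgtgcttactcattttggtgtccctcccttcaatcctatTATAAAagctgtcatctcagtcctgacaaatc

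TATAAA ran from base -29, counted back from the start, in Reg1a and in Reg3b and from base -32 in Reg3g, and these letters occur in 13.1% of 27457 rat promoters of this length. The STAT letters were found in Reg1a, starting at base -242, and in Reg3b at base -129, against 7.52% of promoters. CACCTG occurred in Reg3a at bases -184 and -178, which adjoin without overlap, and in Reg3b at bases -214 and -139, against 15.6% of promoters. The promoter of Reg4 held none of the 3 in its 250 bases. In global alignments, 71.9% of aligned bases were identical between Reg3a and Reg3b, 71.2% between Reg3a and Reg3g, and 68.8% between Reg3b and Reg3g, whose longest shared run is 15 bases. Reg1a matched Reg3a at 67.3%, Reg3b at 61.3% and Reg3g at 58.8%, and Reg4 matched the other members at 58.0% to 64.3%. A match of letters describes the sequence only. Whether the probes of these related genes share signal was not tested.

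Reg1a, which lies at the 99.8th percentile of probe means, measured 13.12, 13.12, 13.25, 10.54, 13.04 and 12.80 in chow-father arrays 1 to 6. In HFD-father arrays 1 to 5 it measured 12.99, 11.83, 11.36, 13.76 and 11.65. The chow-father arrays other than number 4 lay close together, with chow-father 4 far below them, while HFD-father arrays included the highest value of all and 3 values below those close arrays. The means were 12.65 ± 1.04 (SD, n = 6) and 12.32 ± 1.02 (SD, n = 5), and the difference, HFD-father minus chow-father, was -0.33 with a 95% interval from -1.46 to 0.80 (limma, adjusted p = 0.875).

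Reg3a, a pancreatitis-associated protein, measured 7.31, 6.92, 7.95, 5.08, 7.48 and 6.82 in chow-father arrays 1 to 6. In HFD-father arrays 1 to 5 it measured 6.05, 5.54, 5.26, 8.13 and 5.28. Of the HFD-father arrays, 4 of 5 lay below the chow-father mean and 1, HFD-father 4, above every other array, while chow-father 4 was the lowest of all. The difference was -0.88 ± 0.55 (SE), with a 95% interval from -2.07 to 0.32 (limma, adjusted p = 0.653). It was -1.40 without HFD-father replicate 4 (adjusted p = 0.593).

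Reg3b, another pancreatitis-associated protein, measured 6.84, 7.67, 8.28, 4.79, 6.90 and 7.76 in chow-father arrays 1 to 6. In HFD-father arrays 1 to 5 it measured 6.04, 6.52, 4.89, 9.53 and 5.80. The lowest array was again chow-father 4 and the highest HFD-father 4, and the groups overlapped from 4.89 to 8.28, with HFD-father 4 alone above. The means were 7.04 ± 1.23 (SD, n = 6) and 6.56 ± 1.77 (SD, n = 5), a difference of -0.48 with an interval from -2.12 to 1.15 (limma, adjusted p = 0.874). Leaving out HFD-father 3 moved it to -0.07, and leaving out HFD-father 4 to -1.23.

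Reg3g, the antibacterial lectin of gut epithelium, measured 4.75, 5.23, 4.77, 4.45, 3.88 and 6.96 in chow-father arrays 1 to 6. In HFD-father arrays 1 to 5 it measured 4.92, 5.76, 4.58, 4.86 and 3.90. Chow-father 6 and HFD-father 2 were the highest arrays, 1 in each group, and the groups overlapped. The mean of Reg3g lay at the 27.4th percentile of probe means, and no test set its probe against background. The difference was -0.21 with an interval from -1.20 to 0.79 (limma, adjusted p = 0.918). It changed sign to 0.18 without chow-father replicate 6 and to 0.02 without HFD-father replicate 5.

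Reg4 measured from 4.15 to 4.36 in chow-father arrays and from 4.17 to 4.49 in HFD-father arrays. The groups overlapped, and the mean lay at the 17.2th percentile of probe means. No test set the probe against background. The difference was 0.07 with an interval from -0.07 to 0.21 (limma, adjusted p = 0.765), so a difference larger than 0.21 in either direction lies outside the interval.

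Of the 5 members, 0 passed the test at an adjusted p of 0.05 in limma, as did 0% of the 27342 probes. At an unadjusted p under 0.05 there were also 0 of 5, against 9.35% of probes, and in 0 of 5 did the groups not overlap, against 1.06%. Reg3a alone crossed the unadjusted threshold in some alternatives. Its limma p, unadjusted, was 0.00765 without HFD-father 4 (7.40% of probes under 0.05 there) and 0.0223 without chow-father 4 (8.97%). The difference was below 0 for 4 members and above 0 for Reg4, beside a median of -0.0042 over all probes. For Reg3a, Reg3b and Reg1a the intervals span more than 2 log2 units. Within the first run of 8 arrays the differences were -0.02 for Reg1a, -0.57 for Reg3a, -0.15 for Reg3b, 0.23 for Reg3g and 0.07 for Reg4. Within the second run, with 1 HFD-father array and no test, they were -1.28, -1.87, -1.52, -1.53 and 0.09 in the same order.

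**Figure D2:**
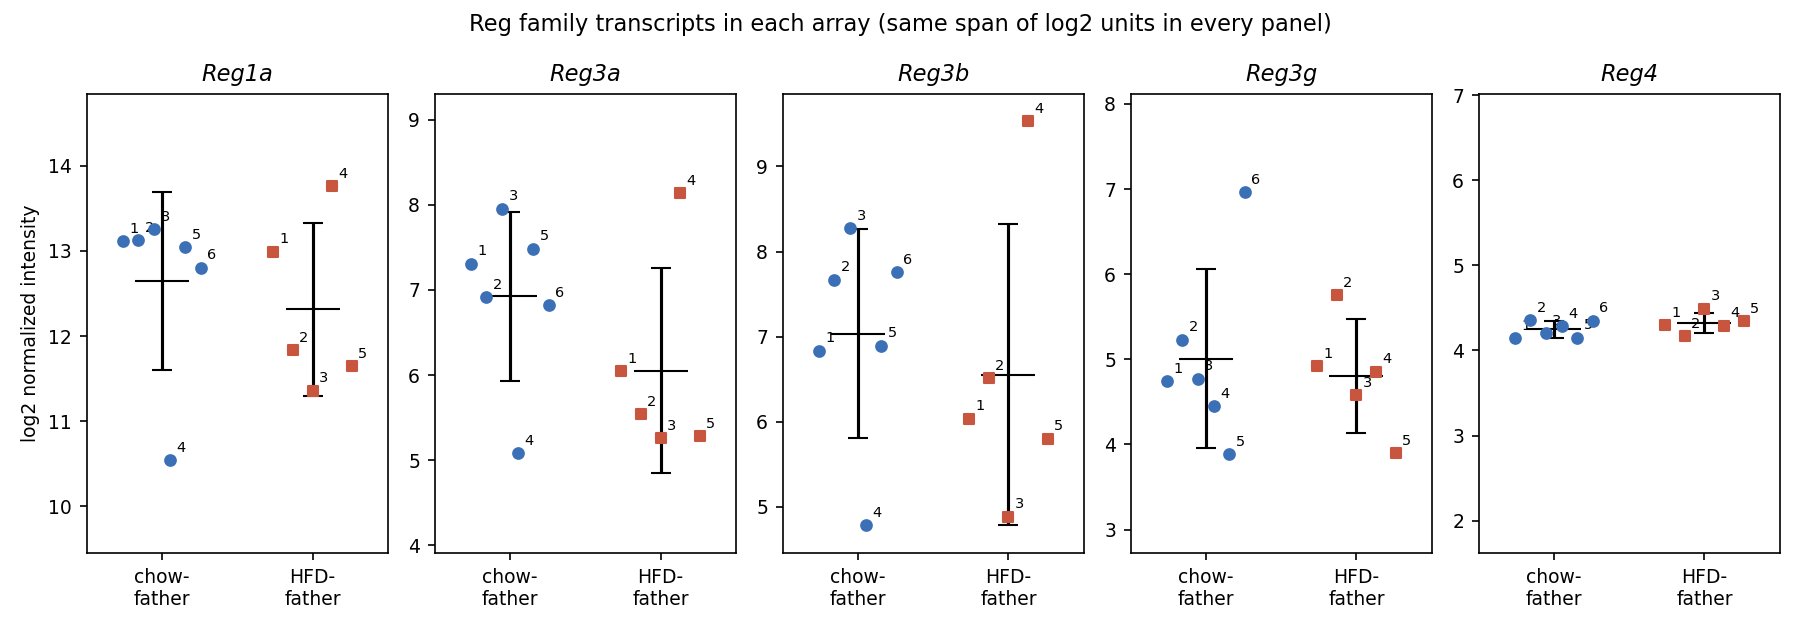
Points are single arrays numbered by replicate (blue circles chow-father, n = 6, red squares HFD-father, n = 5), bars are the group mean ± SD, and every panel spans the same number of log2 units. In Reg1a, Reg3a and Reg3b the array chow-father 4 is lowest and HFD-father 4 highest, in Reg3g chow-father 6 stands out at 6.96, and Reg4 is flat.

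**Figure D3:**
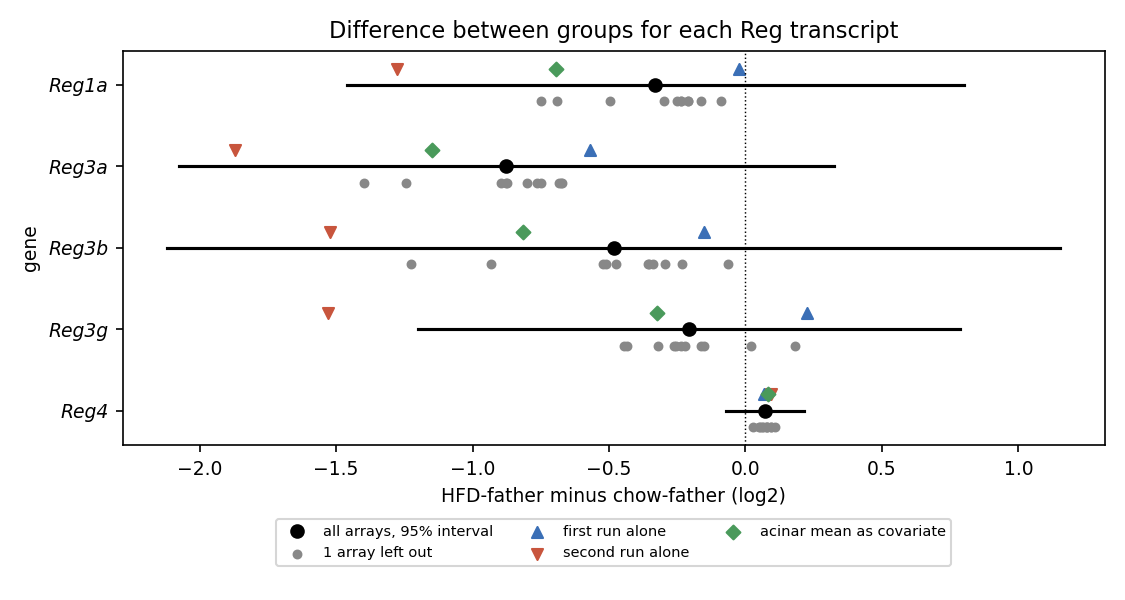
For each gene, the black point and line give the HFD-father minus chow-father difference (log2) with its 95% interval over all 11 arrays, grey points the difference with 1 array left out, and coloured symbols the 2 runs taken alone and the fit with the acinar enzyme mean as covariate. All 5 intervals include 0, and the line for Reg4, from -0.07 to 0.21, is the shortest.

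Reg1a, Reg3a and Reg3b rose and fell together from array to array. The 3 lowest arrays were the same in all 3 genes (chow-father 4, HFD-father 3 and HFD-father 5), and so were the 2 highest (HFD-father 4 and chow-father 3). Over 11 arrays, Pearson's r was 0.91 between Reg1a and Reg3a (Spearman's rho 0.95, adjusted permutation p = 0.0002 and 0.0006), and 0.89 between Reg3a and Reg3b (rho 0.91, adjusted permutation p = 0.0011 and 0.00105). Between Reg1a and Reg3b r was 0.86 (rho 0.88, adjusted permutation p = 0.00203 and 0.00247). The p-values are two-sided, from 100000 permutations, and adjusted over the 10 pairs of members. These adjusted tests were added after the values were seen, and the permutations took no account of the centring per run. Without the 2 arrays farthest from the median of the first gene of each pair, chow-father 4 and HFD-father 3, the r values were 0.90, 0.82 and 0.74 in the same order. Within the first run alone they were 0.90, 0.92 and 0.86, with exact permutation p-values of 0.000843, 0.00109 and 0.00479 over 8 arrays. The second run, with 3 arrays, is too small for a value.

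Reg3g and Reg4 gave no pair correlation that passed. For Reg3g, r was 0.18 with Reg1a, 0.09 with Reg3a and 0.33 with Reg3b, with adjusted permutation p-values of 0.744, 0.814 and 0.541 over 11 arrays. Reg4 gave -0.33, -0.44 and -0.28 with the same genes (adjusted permutation p = 0.541, 0.445 and 0.584) and 0.11 with Reg3g (0.814). Spearman's rho over these 7 pairs lay between -0.38 and 0.44, with adjusted permutation p-values from 0.456 to 0.695. Whether these values differ from those among Reg1a, Reg3a and Reg3b was not tested.

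Of the 5 members, Reg1a had the highest Pearson's r with acinar enzyme transcripts and Reg3g the highest Spearman's rho, and none passed after adjustment. The enzyme mean is the average, over 18 digestive enzyme genes such as Ctrb1 (chymotrypsinogen), Amy2a3 (amylase), Cpa1 (carboxypeptidase) and Cela2a (elastase), of each gene's deviation from its own mean over arrays. Reg1a correlated with it at r = 0.71 over 11 arrays (permutation p = 0.0123), with an adjusted p of 0.0616 over the 5 members, and rho was 0.46 (permutation p = 0.155, adjusted 0.387). Of the single arrays, leaving out chow-father 4 moved the value of r most, to 0.41 (adjusted permutation p = 0.787). Without both arrays farthest from the median of the enzyme mean, chow-father 4 and chow-father 3, it was 0.71 (exact permutation p = 0.0364, adjusted 0.182), and without chow-father 3 alone 0.83 (adjusted permutation p = 0.00735). In the first run alone it was 0.73 (exact permutation p = 0.0329, adjusted 0.164). With both measures centred within run and group it was 0.78 (adjusted permutation p = 0.0284). That permutation took no account of the centring, and HFD-father 5, alone in its run and group, became 0 in both measures. Its p-value is likely too low and is not read as a pass. Of all genes, 4.06% had a higher r with the enzyme mean than Reg1a.

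For Reg3a r was 0.40 and rho 0.35, for Reg3b 0.43 and 0.28, and for Reg3g 0.25 and 0.50, with adjusted permutation p-values from 0.385 to 0.511 for r and from 0.387 to 0.505 for rho. Reg4 gave -0.11 and -0.07 (adjusted permutation p = 0.754 and 0.838). Without the 2 farthest arrays the r values were 0.47 for Reg3a, 0.39 for Reg3b, 0.18 for Reg3g and -0.40 for Reg4. Without chow-father replicate 4 those of Reg3a and Reg3b were 0.10 and 0.10. A straight line on the enzyme mean accounted for 50.7% of the variance of Reg1a, 15.9% of Reg3a, 18.9% of Reg3b, 6.29% of Reg3g and 1.12% of Reg4.

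Single arrays show where Reg and enzyme levels parted. Chow-father 3 had an enzyme mean of -0.31, the second lowest, yet lay above the fitted line by 1.30 in Reg1a, 1.77 in Reg3a and 1.94 in Reg3b. HFD-father 4, with an enzyme mean of 0.22, lay above it by 0.88, 1.36 and 2.37. HFD-father 1 had the highest enzyme mean, 0.43, and lay below the line by -0.24, -0.95 and -1.43. HFD-father 3 lay below it by -0.87, -1.10 and -1.70, and HFD-father 5 by -0.71, -1.16 and -0.89. HFD-father 2 also lay below it in the 3 genes, and chow-father 2, 5 and 6 lay above it. Chow-father 4, far from the other arrays in enzyme mean, weighs heavily in the line itself, so its own distance from it is not read. The distances of the other arrays, and the r values after the line was taken out, rest on that same line. Without chow-father 4, r with the enzyme mean was 0.41 for Reg1a and 0.10 for both Reg3a and Reg3b. After the line was taken out of both genes of a pair, r was 0.97 between Reg1a and Reg3a, 0.87 between Reg1a and Reg3b and 0.86 between Reg3a and Reg3b. The enzymes Ctrb1 and Amy2a3 had means of 14.20 and 14.13, near the highest value of all arrays, 14.35, and SDs of 0.171 and 0.059. The mean of 15 acinar genes other than enzymes ranged more widely, from -1.41 to 0.85. Whether the line takes out all variation in acinar tissue was not tested. With the enzyme mean as a covariate, the group differences were -0.69 for Reg1a, -1.15 for Reg3a and -0.82 for Reg3b (limma, adjusted p = 0.482, 0.445 and 0.677). For Reg3a the 95% interval in that fit ran from -2.22 to -0.07, with an unadjusted limma p of 0.0385, where 11.0% of probes were under 0.05.

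**Figure D4:**
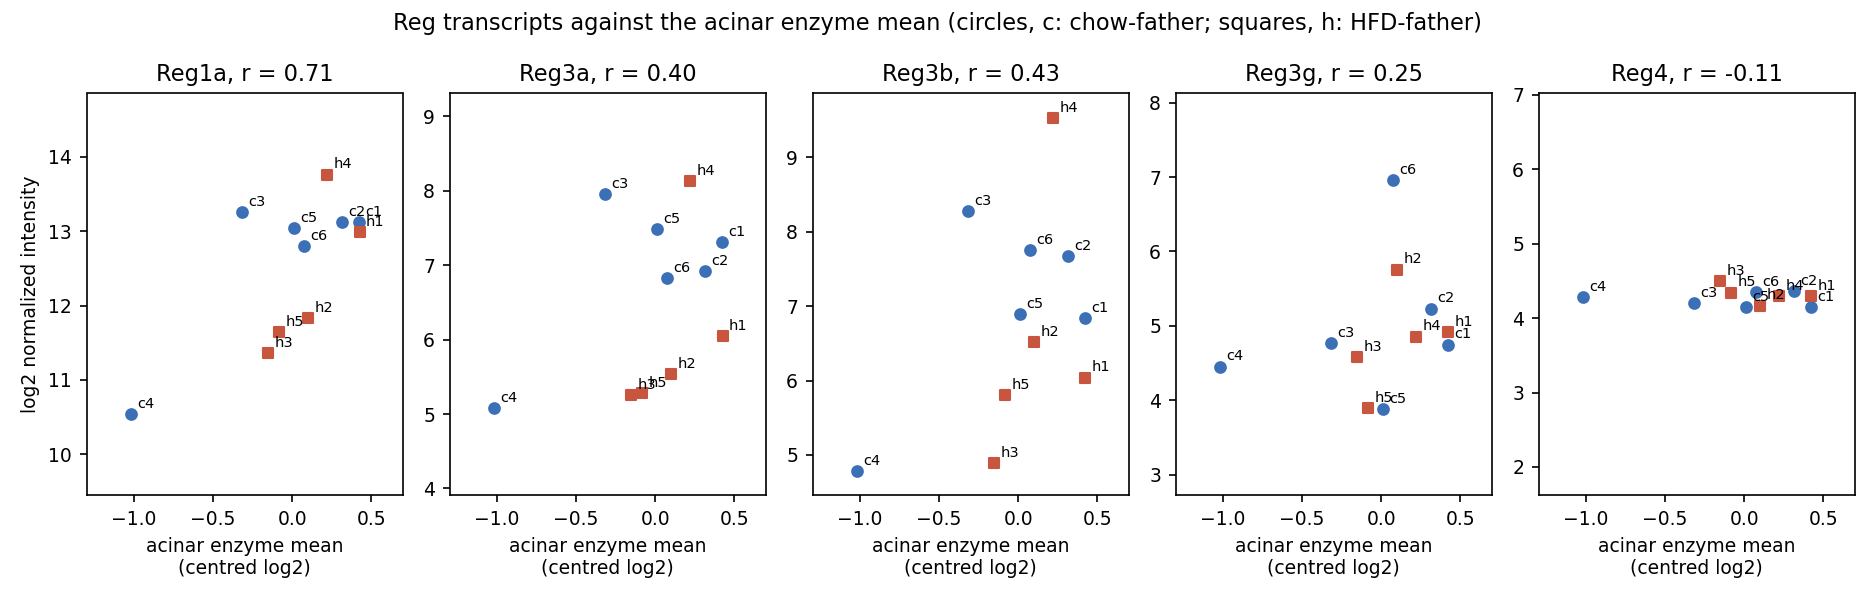
Each panel sets the log2 normalized intensity of 1 Reg gene against the acinar enzyme mean (centred log2) in 11 arrays, with c for chow-father and h for HFD-father arrays. Reg1a has the steepest relation at r = 0.71, chow-father 4 lies alone at the left at -1.02, and chow-father 3 and HFD-father 4 lie above the other arrays in Reg1a, Reg3a and Reg3b.

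The remaining acinar genes, 15 measured of 17, gave similar r values, at 0.70 for Reg1a, 0.39 for Reg3a and 0.39 for Reg3b. Among them, Rbpjl, an acinar transcription factor subunit, had an r of 0.81 with Reg1a, Ptf1a, its partner, 0.63, and Bhlha15, a factor of secretory acinar cells, 0.57. In the group comparison 0 of 18 enzymes and 0 of 15 other acinar genes passed, with 17 of 18 and 12 of 15 above 0 and medians of 0.21 and 0.19. The enzyme direction rests on chow-father 4: the list mean was higher in HFD-father arrays by 0.19 over all arrays and by 0.0018 without that array, where 12 of 18 enzymes lay above 0 with a median of 0.02.

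Of the pathway that induces Reg3 genes, 14 of 16 listed genes were measured, and 0 passed in either direction (median difference 0.01, 9 above 0 and 5 below). Stat3 differed by -0.08, the receptor chain Il6st by 0.03, the oncostatin M receptor Osmr by 0.01 and Extl3, a proposed Reg receptor, by 0.07. Of 20 measured genes of the Stat3 response and acute phase, 0 passed, 15 lay below 0 and 5 above, and the median was -0.10, beside 51.8% of all probes below 0. At an unadjusted limma p under 0.05 there were 4 of the 20, beside 9.35% of all probes, namely Socs3 (-0.15), the feedback inhibitor of this pathway, Fgb (-0.15), Hp (-0.17) and Il1rn (-0.27). The last 3, a fibrinogen chain, haptoglobin and the interleukin 1 receptor antagonist, were named after their values were seen. Lcn2, an acute phase protein gene, differed by 0.08.

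The mean of this response list correlated with Reg1a at r = 0.80 and rho = 0.75 over 11 arrays (adjusted permutation p = 0.0523 and 0.209). With Reg3a the values were 0.70 and 0.66 (adjusted permutation p = 0.176 and 0.209), and with Reg3b 0.46 and 0.50 (adjusted permutation p = 0.407 and 0.323). None passed. Without the 2 arrays farthest from the list's median r was 0.76 for Reg1a, 0.61 for Reg3a and 0.39 for Reg3b, and in the first run 0.80, 0.69 and 0.47. The range of the list mean was narrow, from -0.14 to 0.15 in chow-father and from -0.14 to 0.08 in HFD-father arrays. Socs3 itself had an r of -0.07 with Reg1a and 0.02 with Reg3a.

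Over 35 relations between the 5 members and 7 further list means, p-values were adjusted together, and 1 passed by Pearson's r. Reg1a was lower where islet markers were higher (r = -0.83, adjusted permutation p = 0.0402), and it did not pass by rho (-0.71, adjusted permutation p = 0.209). The r was -0.82 without the 2 farthest arrays and -0.86 in the first run. Genes of wide spread weigh most in this list mean, such as Pyy (SD 0.456) and Ppy (0.376). Ins1, Ins2 and Gcg had SDs of 0.044, 0.046 and 0.072, with means of 14.26, 14.29 and 14.04, near the highest value, 14.35. Their r with Reg1a was -0.65, -0.65 and -0.52, beside -0.61 for Pyy and -0.64 for Ppy. Sst had an r of 0.19, and the other measured islet markers had negative values. For Reg3a and Reg3b r with the islet markers was -0.59 and -0.63, and neither passed (adjusted permutation p = 0.212 and 0.176). Duct, macrophage, lymphocyte and gut secretory cell markers gave no relation that passed for any member. The duct list, 10 measured of 14, had an r of 0.65 and a rho of 0.42 with Reg1a (adjusted permutation p = 0.176 and 0.394). Within it Krt19, a duct cell keratin, had an r of 0.12 with Reg1a, while Muc1, a mucin, Pigr, the receptor that carries antibodies across epithelia, and Cftr, the chloride channel, had 0.73, 0.75 and 0.65. The last 3, named after their values were seen, had the highest r of the 10. The other measured duct genes ran from -0.09 (Mmp7) to 0.48 (Tspan8).

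**Figure D5:**
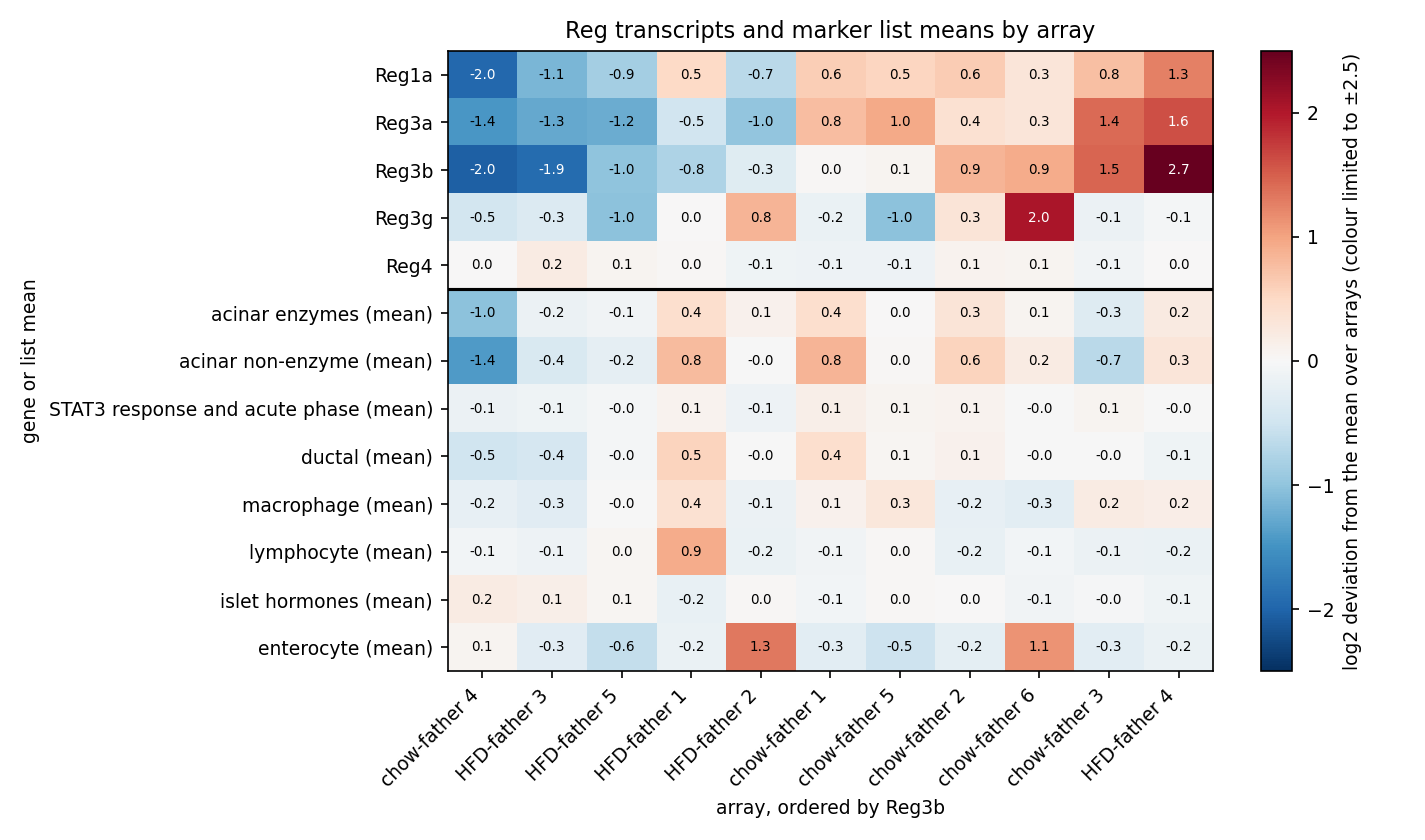
Colours and numbers give the log2 deviation of each array (columns, ordered by Reg3b) from the average over 11 arrays, for the 5 Reg genes and for the means of 8 marker lists. The Reg1a, Reg3a and Reg3b rows run from blue to red together, and the acinar rows follow them in chow-father 4 but not in chow-father 3. The Reg3g and enterocyte rows are both highest in HFD-father 2 and chow-father 6, in opposite order.

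Reg3g was highest in the 2 arrays that also held transcripts of intestinal enterocytes. Fabp2, the intestinal fatty acid binding protein, measured 7.72 in chow-father 6 and 8.40 in HFD-father 2, against 4.50 at most in the other arrays. Fabp1 measured 6.88 and 7.89 (4.55 at most elsewhere), and Si, the sucrase-isomaltase of the brush border, 5.75 and 6.64 (4.74 at most elsewhere). Of 19 listed enterocyte genes, 17 were measured, and in 15 of them these were the 2 highest arrays, the exceptions being Cdx2 and Vil1. The list mean was 1.13 in chow-father 6 and 1.32 in HFD-father 2 and from -0.60 to 0.07 in the other arrays. Each group thus held 1 such array. The order differed, since Reg3g was higher in chow-father 6 (6.96) than in HFD-father 2 (5.76). Chow-father 2, with a list mean of -0.25, had a Reg3g value of 5.23. The list was chosen after values were seen and carries no test. In the remaining 9 arrays Reg3g ran from 3.88 to 5.23 with an SD of 0.454, against 0.865 over all 11. Of these 9, the lowest values, 3.88 and 3.90, were chow-father 5 and HFD-father 5, centred in 1 run with the high chow-father 6, and the 7 arrays of the first run ran from 4.45 to 5.23. Without both arrays the group difference of Reg3g was -0.06 (limma, adjusted p = 0.979). The part of intestinal tissue in the Reg3g values was not tested.

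Over 11 arrays, the highest r among 14324 genes can be large by chance alone, and for the flat Reg4 it was 0.94 (Ccdc33). The genes whose values followed each member most closely over the 11 arrays, by Pearson's r, were ranked with the Reg genes, placeholder symbols and olfactory or vomeronasal receptors left out. For Reg1a they were Bst2, an interferon-induced membrane protein that tethers virus particles (0.93), Mapk14, the p38 kinase (0.91), and Pim3, a kinase gene of the Stat3 response list (0.89). Reg3a was number 4 among all genes for Reg1a, and number 1 for Reg3b. For Reg3a the closest genes outside the family were Cdkn1a, the cell cycle inhibitor p21 (0.94), Bst2 (0.91) and Errfi1, an inhibitor of the epidermal growth factor receptor (0.87). Cdkn1a was highest in HFD-father 4 at 7.59 and lowest in HFD-father 5 at 6.75, an SD of 0.286 against 1.13 for Reg3a. For Reg3b they were Tdrd5 (0.88), Tmigd1 (0.87) and RT1-CE16, a class I histocompatibility gene (0.86).

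The nearest genes to Reg3g were Lgals4, a galectin of the gut epithelium that is also on the enterocyte list (0.96), Akr7a3, an aldo-keto reductase (0.95), and Aqp7, a glycerol channel (0.93). Lgals4 measured 5.78 in chow-father 6 and 5.29 in HFD-father 2, its 2 highest arrays. Reg4 lay nearest to Ccdc33 (0.94), Bmp10 (0.92) and Zkscan3 (0.88). Without chow-father replicate 4, r for the first gene of each member was 0.91 for Bst2, 0.95 for Cdkn1a, 0.90 for Tdrd5, 0.96 for Lgals4 and 0.94 for Ccdc33. These values rank genes over the same 11 arrays and carry no test.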

How the data were processed

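The deposited gene-level table held log2 values of 27342 probes, normalized between arrays by the authors. The log2 scale was read from the values, and per the submitters' processing notes the tools were RMA and MAS5, with neither role nor version. Platform annotation gave 1 symbol to 15097 probes, several to 323 and none to 11922. Symbols were matched through Entrez numbers for 15067 probes (RefSeq, GRCr8), and the probe of highest mean stood for each of 14324 genes. The deposited exon-level table was not used, since 0 of its 65535 features reach the numbers of the Reg probes.

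Groups were compared with limma 3.58.1 in R 4.3.3 (lmFit and eBayes, two-sided, no covariate, all 11 arrays), with Benjamini-Hochberg adjustment over all probes and a threshold of 0.05. The main fit made no allowance for the centring per run. The fit was tested on simulated data. Correlations used 100000 permutations, or all permutations under 10 arrays. Permutations across both runs took no account of the centring per run. The number of arrays limits the precision, and arrays have no read depth. Sequences came from RefSeq promoter tables, and figures from matplotlib 3.10.9 in Python 3.11.15.

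The members and gene lists were chosen with earlier results of these data known. Named genes were the members, the 3 genes most like each (members, placeholder symbols and olfactory or vomeronasal receptors left out), the 4 brightest enzymes, and listed pathway and marker genes, of which Il22ra1 and Sox9 were not analysed here. The enterocyte list, the fits without its 2 arrays or with both the acinar mean and the run, the enzyme list without chow-father 4 and the adjusted pair correlations were added after values were seen. Alternatives were the run or replicate number as a block, the runs alone, 3 other normalizations, a variance trend, array weights, the acinar mean as covariate, a filter on the dimmest 25% of probes, averaging over the probes of a gene, and leaving out single replicates.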

Additional observations from a re-analysis of the deposited data

Results flagged for a closer look

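Reg1a in chow-father 4 measured 10.54, far from the other 5 chow-father arrays, and Reg3a in HFD-father 4 measured 8.13, far from the other 4 HFD-father arrays. Among marker lists, the lymphocyte mean of 0.935 in HFD-father 1 and the enterocyte means of 1.13 in chow-father 6 and 1.32 in HFD-father 2 lay far from the rest of their groups. In each case the gap to the nearest array exceeded Dixon's 95% limit for the group's range. The rule was applied to 30 sets of values, each member or list mean in each group, and chance gives about 1 such array in 20 sets. The enterocyte list was chosen after these arrays were seen to stand apart, so its 2 values are a description and not set against that rate. The acinar enzyme mean of chow-father 4 was also the lowest, at -1.02.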

How the results depend on the processing

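Members that passed the test numbered 0 in the 24 alternatives with a test, and every difference of Reg1a, Reg3a and Reg3b stayed below 0 and of Reg4 above 0. With 1 replicate left out at a time, differences ran from -0.75 to -0.09 for Reg1a, -1.40 to -0.67 for Reg3a, -1.23 to -0.07 for Reg3b, -0.45 to 0.18 for Reg3g and 0.03 to 0.11 for Reg4. The Reg3g difference also turned above 0 in the first run alone (0.23) and with the replicate number as a block (0.18). In the second run alone it was -1.53, and that of Reg3a was -1.87. With the replicate block the other differences were -0.30, -0.90, -0.34 and 0.09 for Reg1a, Reg3a, Reg3b and Reg4, and 0 members passed. With the run as covariate the differences of Reg1a, Reg3a, Reg3b, Reg3g and Reg4 were -0.34, -0.90, -0.49, -0.21 and 0.07. In that fit 7.74% of probes had an unadjusted limma p under 0.05, against 9.35% in the main fit, which made no allowance for the centring per run. Same-numbered arrays correlated between -0.32 and 0.33 in their deviations from the group means, and differently numbered ones between -0.49 and 0.34. The numbers were not taken to pair samples. The -0.32 was that of chow-father 5 and HFD-father 5. The centring of their run of 3 can lower r by itself, so that value cannot show pairing. For the correlation with acinar enzymes, leaving out 1 replicate gave 0.41 to 0.83 for Reg1a, 0.10 to 0.57 for Reg3a, 0.10 to 0.57 for Reg3b, 0.19 to 0.33 for Reg3g and -0.18 to 0.043 for Reg4. Centred within run and group, the value of Reg1a was 0.78, with a p-value that took no account of the centring. In HFD-father arrays alone that of Reg4 was -0.53. The cause was not tested for any of these. Reg4 fell under the filter on dim probes and gave no value there, and each member has 1 probe, so the mean of a gene's probes changes no member.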
